A study of Mus musculus with 17 samples.

Results

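Osgin1 and 8 established targets of the transcription factor NRF2 (Hmox1, Nqo1, Gclm, Gclc, Srxn1, Txnrd1, Slc7a11 and Gsr) were followed across splenic B cells and bone marrow dendritic cells (BMDC) of the mouse. The 9 genes were chosen by symbol among the 55491 genes of each count table, and each symbol matched 1 row in both tables. Osgin1 was picked for its low level in B cells given both drugs, so its B cell values are given as a description with no test. Which values weighed in the choice of the other 8 genes is not recorded.

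Cells of KPC mice, a model of pancreatic cancer, were incubated without treatment (Control), with MSA2, or with MSA2 plus IPI-549 (the combination), and their RNA was sequenced. MSA2 is a small-molecule agonist of STING, the adaptor of cytosolic DNA sensing, and IPI-549 (eganelisib) is an inhibitor selective for PI3Kγ, a phosphoinositide 3-kinase of leukocytes. There were 3 libraries of each of the 3 groups of B cells. BMDC had 3 Control, 3 MSA2 and 2 combination libraries. The genotype label reads WT in all 17 libraries, although the design text names KPC mice, and the treatment label reads Control throughout, so groups were taken from the titles. No group received IPI-549 alone, and dose, time, age, sorting and the animals behind each library are not given in the sources used here. The p-values below therefore measure the spread between libraries, which may be technical.

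NRF2, encoded by Nfe2l2, is held in the cytosol by KEAP1, which presents it for degradation. Oxidants and electrophiles that modify KEAP1 let NRF2 enter the nucleus, pair with a small MAF protein and bind antioxidant response elements, where BACH1 acts as a repressor. Its targets make glutathione, recycle glutathione and thioredoxin, degrade heme and detoxify quinones. In macrophages and dendritic cells this program limits oxidative damage during inflammation. OSGIN1 is a growth inhibitor induced by oxidative stress.

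The stretch just before the transcript start is shown for 3 of the genes because the letters that NRF2 and AP-1 are known to recognise can be seen there. AP-1 is the family of FOS and JUN factors. Each window is the 250 bases before a RefSeq start on GRCm38.p6, written 5′ to 3′ on the gene's strand, with matches in capitals. The windows lie at chr8:119436897-119437146 on the plus strand (Osgin1), chr2:152105274-152105523 on the plus strand (Srxn1) and chr3:122245307-122245556 on the plus strand (Gclm).
Osgin1: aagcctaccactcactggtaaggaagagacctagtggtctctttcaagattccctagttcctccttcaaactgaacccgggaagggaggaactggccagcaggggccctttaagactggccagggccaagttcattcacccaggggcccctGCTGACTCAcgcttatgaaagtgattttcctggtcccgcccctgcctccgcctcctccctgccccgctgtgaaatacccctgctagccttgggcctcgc
Srxn1: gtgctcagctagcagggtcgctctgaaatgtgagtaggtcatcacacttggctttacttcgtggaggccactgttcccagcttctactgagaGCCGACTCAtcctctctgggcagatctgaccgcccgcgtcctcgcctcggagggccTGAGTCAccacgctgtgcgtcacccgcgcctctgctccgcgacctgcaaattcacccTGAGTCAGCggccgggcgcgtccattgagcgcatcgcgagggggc
Gclm: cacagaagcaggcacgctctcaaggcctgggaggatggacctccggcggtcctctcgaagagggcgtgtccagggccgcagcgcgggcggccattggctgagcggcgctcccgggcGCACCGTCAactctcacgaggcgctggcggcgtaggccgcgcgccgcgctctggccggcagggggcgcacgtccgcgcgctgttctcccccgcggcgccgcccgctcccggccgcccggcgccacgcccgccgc
The Osgin1 window lies inside the span GENCODE M21 gives the gene, before a RefSeq start within it.
The search covered both strands for the antioxidant response element core, TGACNNNGC or TGAGNNNGC, and for the AP-1 site, TGACTCA or TGAGTCA. Osgin1 held 1 core, 99 to 91 bases before the start, and its letters overlapped an AP-1 site (97 to 91 bases before). Srxn1 held 2 cores, at 158 to 150 and 45 to 37 bases before the start, and the nearer one overlapped the second of its 2 AP-1 sites. Gclm held 1 core, 134 to 126 bases before the start, with no AP-1 site. RefSeq windows were found for 6 of the 9 genes, 8 windows in all because Txnrd1 has 3. A core stood in 5 of the 8 and an AP-1 site in 2 of the 8. Among all 32851 windows of that length, 23.0% held a core, 4.46% an AP-1 site and 0.706% both in overlap. A match describes the letters only, and no binding was measured.

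On GRCm38 in GENCODE M21, 4 of the genes lie on chromosome 8: Osgin1 (ENSMUSG00000074063, chr8:119434124-119446256), Hmox1 (ENSMUSG00000005413, chr8:75093621-75100589), Nqo1 (ENSMUSG00000003849, chr8:107388225-107403206) and Gsr (ENSMUSG00000031584, chr8:33652523-33698163). Gclm (ENSMUSG00000028124) lies at chr3:122245557-122270732 and Slc7a11 (ENSMUSG00000027737) at chr3:49892526-50443614. Gclc (ENSMUSG00000032350) lies at chr9:77754535-77794485, Srxn1 (ENSMUSG00000032802) at chr2:152105516-152111376 and Txnrd1 (ENSMUSG00000020250) at chr10:82833951-82897712. Counts are per gene and not per exon or transcript. Gclm, Slc7a11 and Txnrd1 overlap annotated genes on the opposite strand, and the strand setting of the counting is not stated, so some of their reads could belong to those neighbours.

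The 9 B cell libraries held 41093440 to 51433008 counts each, and the 8 BMDC libraries 34760025 to 73166643. Levels below are CPM, counts scaled to the library total with factors computed over all 17 libraries. The B cell label fitted the Control and combination libraries, whose 11 B cell markers (Ms4a1, Cd79a, Pax5 and others) summed to 7660 to 8740 CPM. In the 3 libraries labelled MSA2 the same sum was 3840 to 4440 CPM, and markers of other blood cells were high there. In BMDC, 15 monocyte and macrophage markers summed to 16200 to 22100 CPM and 13 dendritic cell markers to 2520 to 3020 CPM, against 37.0 to 53.0 CPM for the B cell markers. The dendritic cell sum did not set the cell types apart, at 2690 to 2870 CPM in Control and 2660 to 3500 CPM in combination B cells. The library numbers of the MSA2 B cells all come after those of the Control and combination B cells, so library order and treatment cannot be told apart there.

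In B cells Osgin1 was lowest with the combination, intermediate in the MSA2 libraries and highest in Control. Its level was 6.83, 11 and 11.6 CPM in the 3 Control libraries. It was 4.99, 6.40 and 5.84 CPM with MSA2, and 2.07, 3.07 and 1.88 CPM with the combination. No group overlapped another, and Control replicate 1 was the nearest to the MSA2 libraries. The log2 fold change against Control was -2.09 ± 0.24 (SE) with the combination, a 4.25-fold difference, and -0.76 ± 0.22 with MSA2. The combination stood -1.32 ± 0.24 below MSA2. Since bulk RNA was measured, fewer cells of a type and less RNA per cell cannot be told apart, for this and every gene below.

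**Figure D1:**
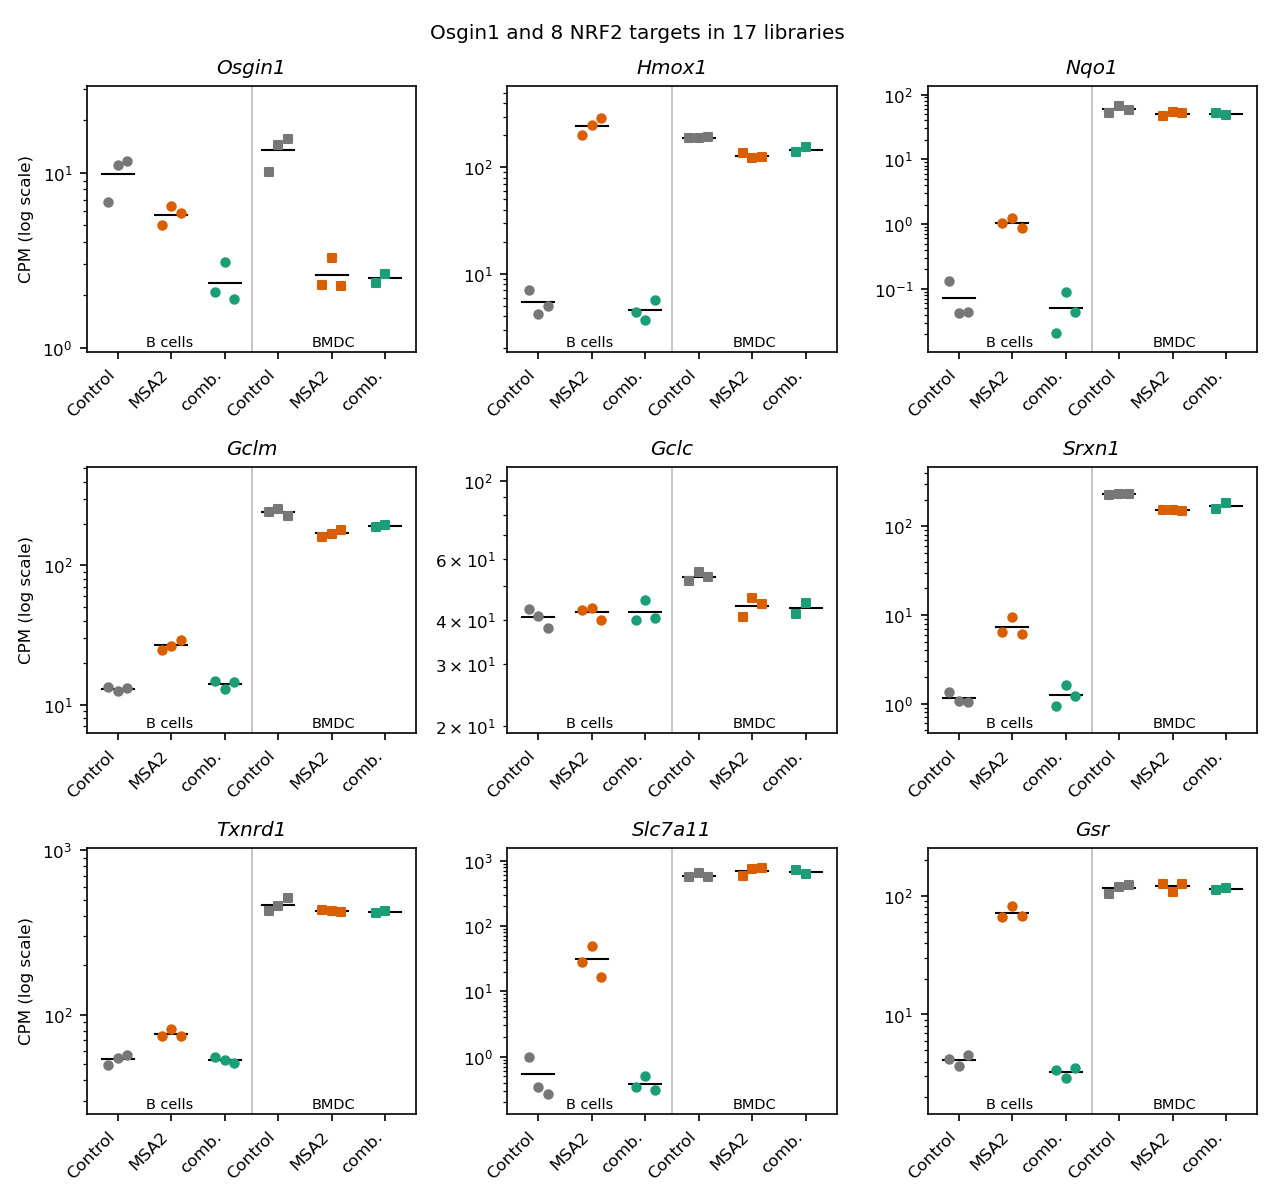
CPM of each of the 9 genes in each library on a log axis, with B cells as circles on the left and BMDC as squares on the right of each panel, points for replicates from left to right, and bars at group means. Hmox1, Slc7a11, Gsr, Srxn1 and Nqo1 stand out in the 3 MSA2 libraries of B cells, while Osgin1 is lower in both treated groups of both cell types.

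In the libraries labelled MSA2 of B cells, 7 of the 8 NRF2 targets tested rose, and the heme, cystine and glutathione recycling genes rose most. Over all 16180 genes tested, 24.9% were higher, 18.5% lower and 43.4% changed in either direction at a Benjamini-Hochberg adjusted p under 0.05 in edgeR's quasi-likelihood test. The median log2 fold change of the 9 genes was 2.67, beside -0.005 for all genes. Nqo1 entered the test through its MSA2 group alone, the other 8 genes through every group, and without Nqo1 the count was 6 of 7.

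Hmox1, the inducible heme oxygenase that opens heme to release iron, carbon monoxide and biliverdin, was at 7.12, 4.21 and 4.97 CPM in Control B cells. It reached 199.0, 248.6 and 290.0 CPM in the MSA2 libraries. Every MSA2 library was far above every Control library, with a log2 fold change of 5.50 ± 0.23 (adjusted p = 1.17e-08, edgeR). Nqo1, a quinone reductase, was close to undetected in Control, with 7, 2 and 2 counts, and had 51, 59 and 39 counts in the MSA2 libraries, or 1.05, 1.24 and 0.860 CPM. Its fitted change was 3.77 ± 0.47 (adjusted p = 5.84e-05, edgeR), and 4.54 without Control replicate 1.

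Slc7a11, the cystine-importing chain of the xc- antiporter that supplies cysteine for glutathione, was at 0.995, 0.337 and 0.263 CPM in Control. It was at 28.3, 48.5 and 16.5 CPM in the MSA2 libraries, the widest spread relative to its mean among the 9 genes in that group. It rose by 5.84 ± 0.49 on the log2 scale (adjusted p = 2.63e-06, edgeR), and by 6.69 without Control replicate 1. Glutamate-cysteine ligase, the first step of glutathione synthesis, split by subunit. Its modifier subunit Gclm was at 13.4, 12.5 and 13.1 CPM in Control and at 24.7, 26.4 and 29.0 CPM with MSA2 (log2 fold change 1.04 ± 0.09, adjusted p = 2.49e-06, edgeR). Its catalytic subunit Gclc was at 43.1, 41.2 and 38.1 CPM in Control and at 42.9, 43.5 and 40.2 CPM with MSA2. The Gclc groups overlapped, with a difference of 0.05 ± 0.09 (adjusted p = 0.644, edgeR).

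Gsr, the reductase that restores glutathione with NADPH, rose from 4.19, 3.66 and 4.53 CPM to 65.8, 81.7 and 67.8 CPM, by 4.13 ± 0.12 on the log2 scale (adjusted p = 2.49e-09, edgeR). Srxn1, sulfiredoxin, which repairs overoxidised peroxiredoxins, rose from 1.34, 1.07 and 1.05 CPM to 6.43, 9.51 and 6.09 CPM, by 2.67 ± 0.25 (adjusted p = 5.24e-06, edgeR). Txnrd1, the cytosolic thioredoxin reductase, moved least of those called, from 49.9, 54.5 and 56.9 CPM to 74.0, 82.3 and 74.2 CPM, by 0.52 ± 0.08 (adjusted p = 0.000228, edgeR). None of these 3 genes overlapped between the groups.

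Markers of other cells were high in the same libraries, and they are given by their summed level because many were too low elsewhere to enter the test except through the MSA2 group. All 12 neutrophil, all 8 mast cell and basophil, 7 of 12 T cell and 7 of 10 NK cell markers passed the filter on low counts in some groups only. The 15 monocyte and macrophage markers, of which 13 passed in every group and rose, summed to 53.5 to 79.3 CPM in Control, 1750 to 2100 CPM in the MSA2 libraries and 56.2 to 60.2 CPM in the combination. The 12 neutrophil markers summed to 32.5, 6.75 and 2.10 CPM in Control, 1520 to 1630 CPM with MSA2 and 0.504 to 0.951 CPM in the combination. From Control to MSA2 the sums went from 14.1 to 40.5 CPM to 1150 to 1490 CPM for T cells and from 13.7 to 19.0 CPM to 342 to 420 CPM for NK cells. They went from 21.2 to 43.0 CPM to 1010 to 1190 CPM for red cell precursors and from 0.153 to 0.440 CPM to 20.4 to 21.8 CPM for mast cells and basophils. All 11 B cell markers passed the filter in every group and fell. Of 11 dendritic cell markers that passed in every group 7 rose and 1 fell, although the sum over all 13 went from 2690 to 2870 CPM to 1830 to 2410 CPM. In Control, Elane and Cpa3 were at 0 in every library, Cd3e, Elane, Clec10a and 5 of the 8 mast cell and basophil markers were in the combination, and no listed marker was in the MSA2 group. The part of these cells in the rise of the NRF2 targets was not tested. Control replicate 1 had the highest sums of all 6 of those other-cell lists among the Control libraries. Among the same libraries it had the highest Hmox1, Slc7a11, Nqo1, Srxn1, Gclm and Gclc and the lowest Osgin1 and Txnrd1, with Gsr in the middle. These orders were not tested.

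**Figure D2:**
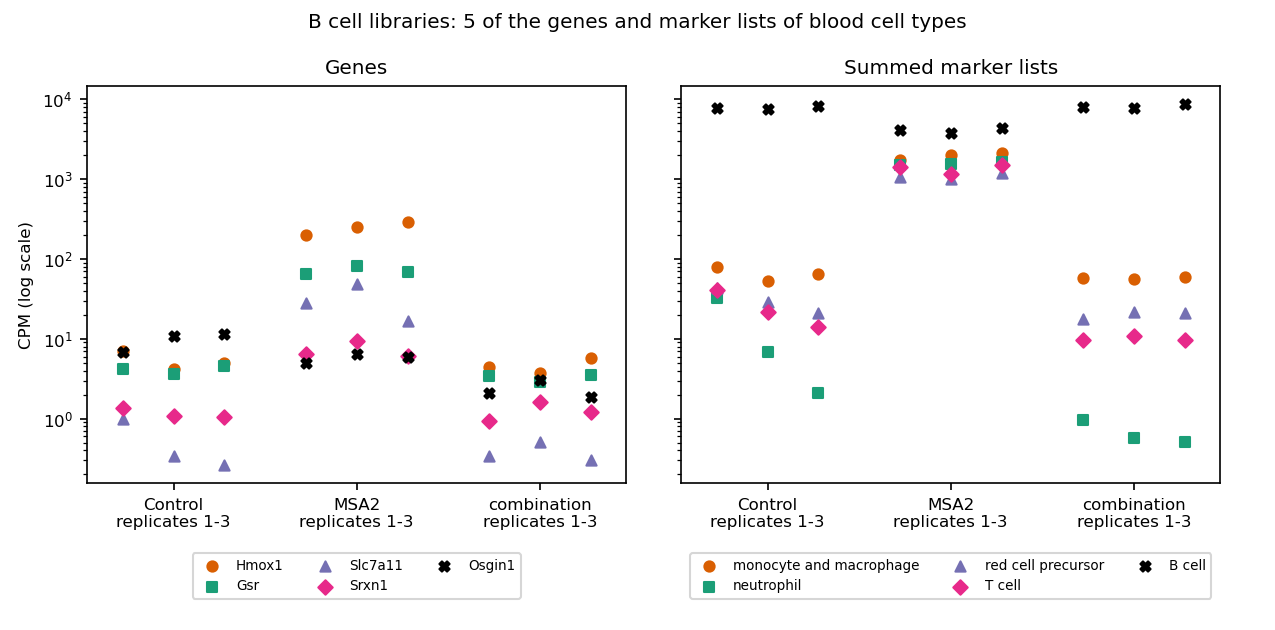
CPM on a log axis in the 9 B cell libraries, for 5 of the genes (left) and for summed marker lists of 5 blood cell types (right), replicates 1 to 3 from left to right in each group. The 3 MSA2 libraries are high for Hmox1, Gsr, Slc7a11 and Srxn1 and for the monocyte and macrophage, neutrophil, red cell precursor and T cell lists, and low for the B cell list, while Osgin1 follows neither pattern.

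With the combination, none of the 8 NRF2 targets passed the test against Control in B cells, where 1.06% of all genes did (0.686% higher, 0.371% lower). Only Gsr had an unadjusted p under 0.05, and in DESeq2 and limma-voom the count of the 8 called was also 0. Hmox1 was at 4.42, 3.69 and 5.69 CPM, within the span of the Control libraries apart from replicate 2. Its difference from Control was -0.27 ± 0.22 on the log2 scale. Gsr, at 3.43, 2.89 and 3.50 CPM, lay below every Control library, by -0.36 ± 0.13 (adjusted p = 0.338, edgeR). Slc7a11 was at 0.338, 0.511 and 0.307 CPM and Nqo1 had 1, 4 and 2 counts, and both differences turned from below to above 0 without Control replicate 1.

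The remaining targets were close to Control in all 3 combination libraries. Gclm was at 14.8, 13.0 and 14.6 CPM (log2 difference 0.10 ± 0.09) and Gclc at 40.2, 45.6 and 40.6 CPM (0.02 ± 0.09). Srxn1 was at 0.930, 1.62 and 1.23 CPM (0.10 ± 0.26) and Txnrd1 at 55.7, 53.1 and 50.9 CPM (-0.04 ± 0.08). A difference of these sizes was not detectable with 3 libraries a group, which does not show that the groups were equal.

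Set against MSA2 alone in B cells, 7 of the 8 targets were lower with the combination (6 of 7 without Nqo1, which passed the filter through its MSA2 group alone), where 22.9% of all genes were lower, 14.1% higher and 37.0% changed. The log2 differences were -6.36 ± 0.52 for Slc7a11, -5.77 ± 0.23 for Hmox1, -4.48 ± 0.13 for Gsr, -4.33 ± 0.50 for Nqo1 and -2.57 ± 0.24 for Srxn1. Gclm (-0.95 ± 0.09) and Txnrd1 (-0.56 ± 0.08) moved less, and the largest adjusted p of the 7 was 0.000144 (Txnrd1, edgeR). Nqo1 stood at -4.95 without combination replicate 2. Gclc showed no call (-0.03 ± 0.09, adjusted p = 0.807, edgeR). The sums of the monocyte and macrophage, neutrophil, T cell, NK cell, red cell precursor and mast cell and basophil markers were lower in every combination library than in every MSA2 library, and their part was not tested. This comparison and that of MSA2 with Control share the MSA2 libraries, so they are not independent.

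Other genes of the pathway were read from lists of related genes, beside 24.9% of all genes higher and 18.5% lower in the B cell MSA2 libraries. The other-cell markers were high in the same libraries for each of these lists, and their part was not tested. Of the 15 genes of the glutathione system that passed the filter in every group 9 rose and none fell. Ggt1, which breaks glutathione down outside the cell, entered through its MSA2 group alone, at a mean of 4.71 CPM there against 0.0925 CPM in Control. Those that rose included the plasma glutathione peroxidase Gpx3 (2.35 ± 0.25 on the log2 scale), the membrane-bound Mgst1 (2.09 ± 0.10) and Slc3a2, the partner chain of Slc7a11 (0.90 ± 0.08). Of 5 NADPH-supplying genes 4 rose, with Idh1 at 1.54 ± 0.21 and G6pdx, the entry of the pentose phosphate pathway, at 0.87 ± 0.08. In the thioredoxin system 5 of 13 rose (4 under upper quartile scaling) and 1 fell. Msrb1, a methionine sulfoxide reductase, rose by 1.94 ± 0.08 and Txn1, the substrate of Txnrd1, by 0.60 ± 0.10. Txnrd3 fell by 0.57 ± 0.13 on the log2 scale.

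Heme and iron genes rose in 12 of 16 cases with none falling (1 fell under upper quartile scaling). The iron exporter Slc40a1 went from a mean of 2.18 CPM to 173 CPM (6.28 ± 0.36), the hemoglobin scavenger receptor Cd163 from 0.664 to 33.6 CPM (5.64 ± 0.34) and the phagosomal metal transporter Slc11a1 from 1.27 to 46.7 CPM (5.21 ± 0.23). Cd163 is itself known as a macrophage gene, and Slc11a1 is known from phagocytes. The metallothionein Mt2 rose by 4.08 ± 0.47. Among ATF4 targets 3 of the 6 that passed the filter in every group rose and none fell, with Asns at 1.25 ± 0.11. Chac1, at 2.74 ± 0.36, passed in the treated groups alone.

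Among the 13 regulators 2 rose and 3 fell in the B cell MSA2 libraries, near the shares of all genes (24.9% higher and 18.5% lower). With DESeq2-type (RLE) factors 2 fell, and with the replicate block 4. Nfe2l2 rose by 0.29 ± 0.07 and Gsk3b by 0.22 ± 0.07. Bach2 fell by 0.45 ± 0.08 and Rbx1 by 0.35 ± 0.09 on the log2 scale. Nfe2l2 was at 110.0, 107.4 and 111.4 CPM in Control and at 136.3, 128.3 and 136.6 CPM with MSA2, without overlap. Keap1 (0.14 ± 0.10) and Bach1 (0.11 ± 0.08) were not called. Oxidant sources fell in 4 of 6 cases (3 with RLE factors) with none rising, led by the NADPH oxidase subunit Ncf4 (-0.42 ± 0.07). Other detoxification genes were split, 2 up and 3 down of the 9 that passed in every group, with Ephx1 at -0.45 ± 0.07. Cbr3, at 1.94 ± 0.34, did not pass in Control.

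With the combination, 2 genes of all these lists passed the test against Control in B cells, where 1.06% of all genes did. Slc3a2, an amino acid carrier chain, was at 153, 162 and 185 CPM in Control and at 348, 371 and 378 CPM with the combination. It rose by 1.11 ± 0.08 (adjusted p = 2.78e-05, edgeR), while its partner Slc7a11 stayed under 0.6 CPM in all 3 libraries. Slc3a2 was at 297, 305 and 326 CPM in the MSA2 libraries. The other was Atf3, a stress-induced repressor and ATF4 target, which rose by 1.36 ± 0.14 (adjusted p = 0.000279, edgeR). With the replicate block, 1 of 13 regulators and 1 of 5 NADPH-supplying genes also rose, and 1 of 13 thioredoxin system genes fell. Osgin2, the paralog of Osgin1, was at 49.6, 52.0 and 57.0 CPM in Control and at 59.9, 60.8 and 65.8 CPM with the combination (0.21 ± 0.07, adjusted p = 0.323, edgeR). Against MSA2, 8 of the 15 glutathione genes that passed in every group and 11 of the 16 heme and iron genes were lower with the combination, beside 22.9% of all genes, as were the other-cell marker sums.

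In BMDC the pattern was another: Osgin1 and 4 of the 8 NRF2 targets fell with MSA2 and none rose. Osgin1 was at 10.1, 14.4 and 15.6 CPM in Control, at 2.27, 3.24 and 2.26 CPM with MSA2, and at 2.35 and 2.62 CPM with the combination. Every treated library was below every Control library. It fell by 2.34 ± 0.19 on the log2 scale with MSA2 (adjusted p = 4.72e-06, edgeR), a 5.07-fold difference. With the combination it fell by 2.42 ± 0.23 (adjusted p = 3.04e-05, edgeR). Both comparisons use the same Control libraries and are not independent. The treated groups overlapped, and the combination stood at -0.08 ± 0.23 from MSA2 (adjusted p = 0.935, edgeR). Among all 14614 genes tested in BMDC, 13.5% were lower, 14.6% higher and 28.2% changed with MSA2. With the combination 5.38% were lower, 7.51% higher and 12.9% changed. Of those called, 52% were higher with MSA2 and 58.3% with the combination, which became 36.7% and 47.2% under upper quartile scaling.

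The NRF2 targets that fell did so by less than Osgin1. Srxn1 was at 229, 234 and 234 CPM in Control, at 153, 154 and 151 CPM with MSA2 and at 159 and 183 CPM with the combination. It fell by 0.61 ± 0.06 with MSA2 (adjusted p = 3.09e-05, edgeR) and by 0.44 ± 0.07 with the combination (adjusted p = 0.00176, edgeR). Hmox1 was at 187.6, 189.5 and 192.8 CPM in Control, at 136.9, 123.2 and 125.2 CPM with MSA2 and at 139.0 and 153.6 CPM with the combination. The changes were -0.57 ± 0.06 (adjusted p = 5.77e-05, edgeR) and -0.37 ± 0.07 (adjusted p = 0.0053, edgeR). For both genes the treated libraries all lay below Control.

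Both subunits of glutamate-cysteine ligase fell here. Gclm went from 242, 255 and 225 CPM to 160, 169 and 181 CPM with MSA2 and to 189 and 194 CPM with the combination. Its changes were -0.50 ± 0.07 (adjusted p = 0.000198, edgeR) and -0.32 ± 0.08 (adjusted p = 0.0154, edgeR). Gclc went from 51.8, 54.9 and 53.4 CPM to 40.9, 46.3 and 44.5 CPM and to 41.8 and 44.8 CPM. Its changes were -0.28 ± 0.07 (adjusted p = 0.00892, edgeR) and -0.30 ± 0.08 (adjusted p = 0.0252, edgeR). The combination's count of 5 rested on all its libraries: it was 3 without Control replicate 1, 3 without Control replicate 2, 2 without combination replicate 1 and 3 without combination replicate 2. Gclc lost its call without any one of the 3 Control or 2 combination libraries, Gclm without any of those except Control replicate 3, and Hmox1 without combination replicate 1. Osgin1 and Srxn1 kept theirs throughout.

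The other 4 genes were not called in either comparison with Control. Slc7a11 was at 553, 642 and 567 CPM in Control, 582, 754 and 779 CPM with MSA2 and 719 and 632 CPM with the combination. Its difference with MSA2 was 0.26 ± 0.11 (adjusted p = 0.0971, edgeR). It passed in DESeq2 (adjusted p = 0.0376), with no filter on low counts (adjusted p = 0.00378, edgeR) and without MSA2 replicate 1 (0.38, adjusted p = 0.00596, edgeR). Nqo1 was at 52.0, 67.7 and 57.6 CPM in Control, 46.2, 53.0 and 51.7 CPM with MSA2 and 51.4 and 48.5 CPM with the combination. With MSA2 it differed by -0.23 ± 0.09 (adjusted p = 0.0861, edgeR). It passed without Control replicate 1 (-0.32, adjusted p = 0.0332, edgeR), with upper quartile factors (-0.31, adjusted p = 0.0316) and with no filter (adjusted p = 0.0228). Txnrd1 was between 418 and 515 CPM in all 8 libraries, with its highest value in Control replicate 3, and Gsr between 104 and 127 CPM.

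Between the combination and MSA2 in BMDC none of the 9 genes was called in edgeR, as was true of all 14614 genes (0% called). At an unadjusted p under 0.05 there were 3 of the 9 genes and 1594 of all 14614 genes, and over all genes DESeq2 called 156 and limma-voom 3. The 3 genes were Hmox1 (0.20 ± 0.07), Gclm (0.18 ± 0.07) and Srxn1 (0.17 ± 0.07). Their adjusted p was 0.364 to 0.41 (edgeR). In each of them both combination libraries lay between the MSA2 and the Control libraries. How many of all genes lay in that order was not counted, so it is a description alone. The median difference of the 9 genes was -0.005, beside 0.007 for all genes.

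**Figure D3:**
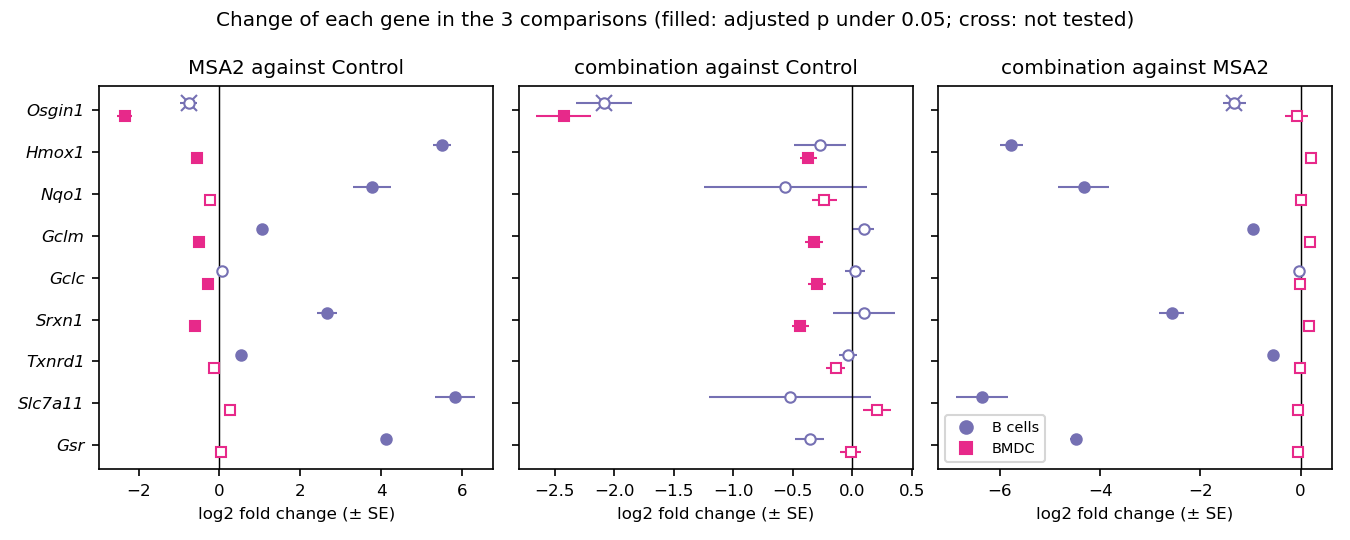
Log2 fold change with its SE for each gene in 3 comparisons, B cells as circles and BMDC as squares, filled where the adjusted p was under 0.05 and crossed where no test was made. With MSA2 the B cell points lie between -0.76 and 5.84 and the BMDC points between -2.34 and 0.26, and against Control the combination moves Osgin1 by more than 2 in both cell types.

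Myeloid and dendritic markers moved in part in BMDC. With MSA2, 3 of 15 monocyte and macrophage markers rose and 4 fell, beside 14.6% of all genes higher and 13.5% lower. Their sum went from 19800 to 22100 CPM in Control to 16200 to 19400 CPM, with 18300 and 19000 CPM in the combination. Of 10 dendritic cell markers that passed the filter in every group 3 rose and 3 fell, with sums over all 13 of 2720 to 3020, 2520 to 2670 and 2750 to 2770 CPM in Control, MSA2 and combination. The neutrophil sum was 766 to 1040 CPM in Control and 751 to 958 CPM in the treated libraries. The part of these shifts in the lower NRF2 targets was not tested. B cell markers summed to 49.0 to 53.0 CPM in Control, 37.0 to 39.4 CPM with MSA2 and 44.4 and 48.9 CPM with the combination.

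Among the regulators in BMDC, the small MAF genes rose with MSA2, while the sensor Keap1 fell. Maff, a partner of NRF2 and also of BACH1, went from a mean of 16 ± 6.38 CPM (SD, n = 3) to 66.3 ± 4.81 CPM (n = 3), by 2.05 ± 0.21 (adjusted p = 2.55e-05, edgeR). Mafk went from 33.7 ± 5.54 to 83.2 ± 11.4 CPM, by 1.302 ± 0.12 (adjusted p = 1.41e-05, edgeR), and Mafg rose by 0.31 ± 0.09 (adjusted p = 0.0314, edgeR). Keap1 was at 57.5, 52.9 and 55.6 CPM in Control and at 48.5, 38.5 and 44.5 CPM with MSA2, a fall of 0.34 ± 0.08 on the log2 scale (adjusted p = 0.0105, edgeR). Nfe2l2 itself was not called (0.14 ± 0.12). Of the 13 regulators, 4 rose and 1 fell, beside 14.6% of all genes higher and 13.5% lower. Under upper quartile scaling 2 regulators rose and 1 fell. With the combination 2 rose, Maff by 1.43 ± 0.22 and Mafk by 0.91 ± 0.13, and none fell, beside 7.51% of all genes higher and 5.38% lower.

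Osgin2, the paralog of Osgin1, and Slc3a2, the partner chain of Slc7a11, both rose in BMDC. Osgin2 was at 18.9, 24.5 and 32.3 CPM in Control, at 45.1, 56.3 and 47.3 CPM with MSA2 and at 43.4 and 38.5 CPM with the combination. It rose by 0.98 ± 0.16 (adjusted p = 0.000809, edgeR) and by 0.71 ± 0.17 (adjusted p = 0.0208, edgeR), where Osgin1 fell. Slc3a2 was at 288, 316 and 335 CPM in Control, at 489, 585 and 509 CPM with MSA2 and at 520 and 502 CPM with the combination. It rose by 0.75 ± 0.08 (adjusted p = 4.44e-05, edgeR) and by 0.72 ± 0.09 (adjusted p = 0.000269, edgeR), and Slc7a11, at 0.26 ± 0.11 and 0.21 ± 0.12, was not called in either comparison. The differences between the genes of each pair were not tested.

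**Figure D4:**
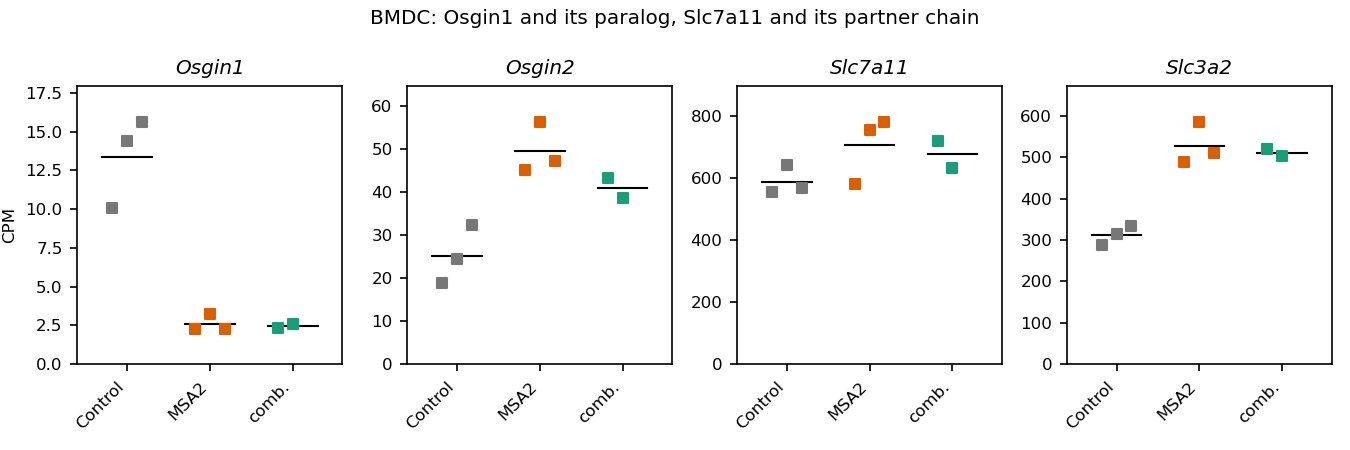
CPM in the 8 BMDC libraries on linear axes that start at 0, with bars at group means, for Osgin1, its paralog Osgin2, Slc7a11 and its partner chain Slc3a2. Osgin1 is at 2.26 to 3.24 CPM in the treated libraries against 10.1 to 15.6 CPM in Control, Osgin2 and Slc3a2 are above Control in every treated library, and the Slc7a11 groups overlap.

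Heme and iron genes fell in 8 of 16 cases with MSA2 in BMDC and rose in 1, beside 13.5% of all genes lower and 14.6% higher. Under upper quartile scaling 10 fell and 1 rose. The metal transporter Slc11a1 fell by 0.53 ± 0.05, the metallothioneins Mt1 and Mt2 by 0.53 ± 0.10 and 0.49 ± 0.07, and the transferrin receptor Tfrc rose by 0.54 ± 0.09. With the combination 4 of the 16 fell and 1 rose. In the thioredoxin system 2 of 13 fell with MSA2, a share near that of all genes, and 4 fell under upper quartile scaling. None rose. Txnip, the inhibitor of thioredoxin, fell by 2.39 ± 0.36 with MSA2 and by 1.59 ± 0.40 with the combination, from a mean of 379 ± 217 CPM in Control to 72.9 ± 13.6 CPM and 125 ± 0.428 CPM (SD, n = 3, 3 and 2).

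In the glutathione system 1 of 15 tested genes rose with MSA2 and 2 fell, Gstm1 by 0.51 ± 0.06 and the glutathione synthetase Gss by 0.27 ± 0.06, which is also near the share of all genes. Of 6 NADPH-supplying genes 3 fell (4 under upper quartile scaling, 2 with RLE factors and 2 with the replicate block). Of 7 oxidant sources 2 fell (4 under upper quartile scaling and 1 with the block). No gene rose in either list, and 13.5% of all genes were lower. Other detoxification genes fell in 4 of 11 cases, led by Akr1b8 (-0.50 ± 0.08), and Osgin2 was the 1 that rose. Of 7 ATF4 targets 2 rose and 2 fell, among them Atf3 (1.66 ± 0.21) and Sesn2 (-0.60 ± 0.11). With the combination 1 ATF4 target, Sesn2, fell by 0.75 ± 0.12. No gene of these lists was called between the combination and MSA2 in edgeR.

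Whether the cell types responded differently was tested with an interaction term in a fit of all 6 groups. With MSA2 the response of BMDC was below that of B cells for all 8 targets, where 20.7% of all 17740 genes were lower, 16.3% higher and 37.0% differed. The difference was -6.06 ± 0.24 on the log2 scale for Hmox1, -5.56 ± 0.49 for Slc7a11 and -4.07 ± 0.15 for Gsr, and -0.33 ± 0.11 for Gclc, the smallest. Gclc lost its call, at adjusted p of 0.0542 to 0.0579 (edgeR), without B cell Control replicate 3, B cell MSA2 replicate 1 or BMDC MSA2 replicate 1. It also lost its call with no filter on low counts (-0.32, adjusted p = 0.0885, edgeR). These differences rest on the B cell libraries labelled MSA2, with the other-cell markers given above.

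For the combination against Control the cell types differed in 1 of the 8 targets, beside 3.04% of all genes (0.902% lower, 2.14% higher). It was Gclm, at -0.45 ± 0.12 (adjusted p = 0.0463, edgeR), and the call was lost without any one of 11 of the 17 libraries: B cell Control replicates 1, 2 and 3, B cell combination replicates 1 and 3, BMDC Control replicates 1 and 2, BMDC MSA2 replicates 2 and 3, and both BMDC combination libraries. Gclc was next at -0.35 ± 0.11 (adjusted p = 0.119, edgeR; 0.0426 in DESeq2). For Osgin1, without a test, the difference in response was -1.57 ± 0.31 with MSA2 and -0.37 ± 0.35 with the combination, with changes against Control of -2.09 in B cells and -2.42 in BMDC for the latter. For the combination against MSA2 the response was higher in BMDC for 7 of the 8 targets, where 15.3% of all genes were higher, 8.83% lower and 24.1% differed, and Gclc was the one not called. Osgin2 responded to MSA2 higher in BMDC than in B cells by 1.25 ± 0.19 (adjusted p = 3.95e-05, edgeR), having fallen by 0.27 ± 0.07 in B cells.

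Across the 6 groups the order of levels set B cells and BMDC apart for most of the genes. Srxn1, Gclm, Txnrd1, Slc7a11, Nqo1 and Gsr were higher in all 8 BMDC libraries than in all 9 B cell libraries, the MSA2 ones included. How many of all genes were set apart in this way was not counted, so it is a description alone. Slc7a11 was 587 ± 47.9 CPM (SD, n = 3) in Control BMDC and 0.531 ± 0.403 CPM (n = 3) in Control B cells, and Srxn1 232.5 ± 2.86 and 1.154 ± 0.161 CPM. The labels give the libraries of each cell type a number prefix of their own, so cell type and whatever that prefix stands for cannot be told apart in such levels. Hmox1 had another order, with its highest mean in B cell MSA2 libraries (245.9 ± 45.6 CPM), then Control BMDC (190.0 ± 2.64 CPM), and no overlap between neighbours down to Control B cells, which overlapped the combination B cells.

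Osgin1 levels were highest in the Control groups of both cell types. The gene was picked for its low level in combination B cells, so the low place of that group was set by the choice. Control BMDC (13.4 ± 2.92 CPM) and Control B cells (9.81 ± 2.598 CPM) overlapped at the top, MSA2 B cells followed alone (5.74 ± 0.712 CPM), and the 3 lowest groups, both treated BMDC groups and the combination B cells, overlapped at 1.88 to 3.24 CPM. Gclc varied least. Control BMDC stood alone at 53.4 ± 1.57 CPM, and the other 5 groups, at means of 40.8 to 43.9 CPM, each overlapped the next.

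Levels of different genes were compared as CPM per kilobase of merged exons. In Control B cells Gclc (10.8) and Txnrd1 (7.59) led, and Slc7a11 (0.0382) and Nqo1 (0.0472) were lowest. In the MSA2 B cell libraries Hmox1 (140.4) and Gsr (26.1) led. In Control BMDC Hmox1 (108.5), Srxn1 (82.4) and Txnrd1 (65.9) led and Osgin1 (4.999) was lowest. The ratio of modifier to catalytic ligase transcripts, Gclm to Gclc per length, was 0.186, 0.181 and 0.206 in Control B cells and 0.344, 0.363 and 0.433 in the MSA2 libraries. It was 0.220, 0.170 and 0.216 with the combination. In BMDC it was 2.80, 2.78 and 2.52 in Control, 2.35, 2.18 and 2.43 with MSA2 and 2.71 and 2.6 with the combination, so the modifier transcript was the scarcer of the pair in B cells and the more abundant in BMDC.

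The genes whose levels most resembled Osgin1 were found by Pearson correlation of log2 CPM leaving out genes whose mean was under 5 CPM. Over the 9 B cell libraries (9671 genes) they were Socs3 (r = 0.945), Lsm10, Irf2bpl, Spi1 and Rrad (0.913). Socs3, a feedback inhibitor of cytokine receptors, had means of 102, 72.8 and 36.1 CPM in Control, MSA2 and combination. Over the 8 BMDC libraries (9999 genes) they were Fosl2 (r = 0.997), Errfi1 (0.993), P2ry1, Elmsan1 and Ifngr2. Fosl2, a subunit of AP-1, had means of 82.6, 35.5 and 35.4 CPM. For Hmox1 the nearest in B cells were Fcna, Hfe, C1qc, C1qb and Actn1 (r = 0.998 to 0.999), of which C1qc and C1qb are in the macrophage marker list. Fcna, Hfe, C1qc and C1qb passed the limit of 5 CPM through their MSA2 level alone. Fcna, for example, had means of 1.68, 105 and 1.45 CPM in Control, MSA2 and combination. Genes that enter in this way resemble Hmox1 by the filter itself, so their r is a description alone. In BMDC the nearest to Hmox1 were Adgre5 (r = 0.994), Myo7a, Mfsd5, Gstm2 and Tmem151a (0.987). The points of each correlation are libraries of 3 treatment groups that share their controls and fall into clusters by treatment, so r describes these libraries alone.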

How the data were processed

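RNA of 17 libraries was sequenced. The authors deposited RSEM expected counts per gene, already whole numbers. The submitters' processing notes name RSEM 1.3.3, STAR 2.7.8a and cutadapt 4.8, the quality tools MultiQC 1.20 and FastQC 0.11.8, and the build GRCm38. Annotation release and strand are not given in the sources used here.

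Each cell type's 3 groups were fitted with the quasi-likelihood F test of edgeR 4.0.16 under R 4.3.3, using TMM library factors and filterByExpr, adjusted over all genes tested. A call is an adjusted p under 0.05. The interaction used 1 fit of all 6 groups. SE is the absolute log2 fold change over the square root of F. Fits of MSA2 against Control recovered changes in simulated counts. Those counts held few changed genes, in both directions, unlike the B cell MSA2 libraries, and the interaction was not simulated. The alternatives were upper quartile and DESeq2-type (RLE) factors, no filter, at least 1 CPM in 3 libraries, DESeq2 1.42.0, limma-voom (limma 3.58.1), the compared groups alone, a replicate block and each library left out. Correlations used log2(CPM + 0.1).

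The genes and gene lists were chosen with earlier results of these data known. From the related lists the text names up to 4 called genes per list and comparison with the largest changes, and always Nfe2l2, Keap1, Bach1, Slc3a2, Txn1 and Osgin2. Title suffixes number the libraries. Same-suffix deviations from group means, on log2(CPM + 0.5), correlated at 0.232, 0.256 and 0.426 between MSA2 and combination B cells. Elsewhere they correlated at -0.154 to 0.116. The criterion used for pairing, each correlation over 0.1, was met by MSA2 and combination B cells alone. Correlations between different suffixes were not computed, so whether those libraries are paired is not settled. All printed values are from unpaired fits unless the block is named, and the block changed no call of the 9 genes. One gene of the B cell marker list is not reported here and was taken out of its sums and counts. No libraries were left out, and promoter windows came from RefSeq.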

Additional observations from a re-analysis of the deposited data

Results flagged for a closer look

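Differences in response between BMDC and B cells are listed here because the interaction term itself passed an adjusted p under 0.05 in edgeR, over 17740 genes. Values are log2 differences, BMDC minus B cells, each with its SE, for the 8 NRF2 targets. With MSA2 against Control they were -6.06 ± 0.24 for Hmox1, -5.56 ± 0.49 for Slc7a11, -4.07 ± 0.15 for Gsr, -3.99 ± 0.36 for Nqo1 and -3.27 ± 0.22 for Srxn1. Gclm (-1.54 ± 0.11), Txnrd1 (-0.65 ± 0.11) and Gclc (-0.33 ± 0.11) differed less. With the combination against Control, Gclm alone differed (-0.45 ± 0.12), where 3.04% of all genes did. Its call was lost with no filter (adjusted p = 0.0695, edgeR), with limma-voom (adjusted p = 0.0701) and without single libraries, as listed above. With the combination against MSA2 the response of BMDC was the higher one, by 6.27 ± 0.52 for Slc7a11, 5.93 ± 0.24 for Hmox1, 4.38 ± 0.16 for Gsr, 4.29 ± 0.40 for Nqo1 and 2.71 ± 0.23 for Srxn1, and by 1.09 ± 0.12 for Gclm and 0.52 ± 0.12 for Txnrd1. Without B cell Control replicate 1 the first contrast was -4.75 for Nqo1 and -6.41 for Slc7a11, and without B cell combination replicate 2 the last was 4.90 for Nqo1. The 15 values that involve MSA2 rest on the B cell libraries labelled MSA2, whose other-cell markers were high and whose part was not tested.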

How the results depend on the processing

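Of 1508 recomputed values of single genes, 1429 kept their direction and side of the threshold, 27 lost a call, 7 gained one and 43 changed sign. The last 2 were untested values that moved by more than their SE, Osgin1 in B cells without combination replicate 2 (-2.34 against Control, -1.57 against MSA2). The size of a shift was judged for untested Osgin1 values alone. Tested values could move by more than their SE and still count as kept. An example is Nqo1 in B cells with MSA2 (3.77 ± 0.47, and 4.54 without Control replicate 1). Leaving out single libraries gave 7 to 7, 0 to 0 and 7 to 7 called genes in the 3 B cell comparisons, 5 to 6, 2 to 5 and 0 to 0 in BMDC, and 7 to 8, 0 to 1 and 7 to 7 for the interaction. The interaction count for the combination against Control was 0 with no filter, 2 with DESeq2 and 0 with limma-voom. The cause was not tested. With the replicate block the counts stayed at 7, 0 and 7 in B cells and 5, 5 and 0 in BMDC, and the block changed no call of these genes. Of the related lists, heme and iron genes lower with the combination in BMDC numbered 2 with the block and 4 without. Counts of other related lists moved with the block too, as given above for the combination in B cells and for MSA2 in both cell types.

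No value that was called changed sign. Sign changes with other settings concerned values near 0: Gclc in B cells, combination against MSA2 (0.004 with no filter), and its interaction (0.01 at 1 CPM), Gsr in BMDC (-0.026 with upper quartile factors for MSA2, 0.032 with the block for the combination), and in BMDC, combination against MSA2, Nqo1 (0.026 and 0.008), Gclc (0.015) and Txnrd1 (0.024 and 0.025) with upper quartile factors and, where 2 are given, the block.

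Leaving out single libraries turned the sign of values that had no call, within these ranges. In B cells Gclc ran from -0.004 to 0.104 (MSA2 against Control), -0.046 to 0.07 (combination against Control) and -0.094 to 0.01 (combination against MSA2). For the combination against Control in B cells, Nqo1 ran from -1.184 to 0.212, Slc7a11 from -0.841 to 0.334, Srxn1 from -0.136 to 0.272 and Txnrd1 from -0.084 to 0.003. In BMDC Gsr ran from -0.025 to 0.116 with MSA2 and from -0.084 to 0.037 with the combination. Between combination and MSA2 in BMDC, Osgin1 ran from -0.172 to 0.138, Nqo1 from -0.057 to 0.039, Gclc from -0.066 to 0.038, Txnrd1 from -0.023 to 0.014 and Slc7a11 from -0.173 to 0.035. In the interaction for the combination against Control, Hmox1 ran from -0.368 to 0.063, Nqo1 from -0.457 to 0.916 and Slc7a11 from -0.138 to 1.015, and for the combination against MSA2 Gclc ran from -0.071 to 0.041.

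Counts over all genes moved more. In B cells the combination against Control gave 171 called genes, 359 with no filter, 392 with DESeq2, 260 with the replicate block and 91 to 220 with single libraries left out. Their share above Control was 64.9%, and 52.1% with no filter and 49.5% with DESeq2. Combination against MSA2 in BMDC gave 0, and 561 with no filter, 156 with DESeq2, 3 with limma-voom, 13 with the compared groups alone and 0 to 99 with single libraries left out. Combination against Control in BMDC gave 1883, and 843 and 1036 without combination replicates 1 and 2. The interaction for the combination against Control gave 539, 818 with no filter, 892 with DESeq2 (59.6% of them higher against 70.3%) and 246 to 654 with single libraries left out. Nqo1 in B cells was not tested at the 1 CPM filter, and its few counts limit its values there.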
